A study of Mus musculus with 2 samples.

Results

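The 10 genes described here (Mrc1, Pf4, Stab1, Dab2, Cd163, F13a1, Lyve1, Folr2, Cbr2 and Tgfbi) are genes by which macrophages of the brain's borders are usually told from microglia. They were taken by symbol from the 31053 features listed in the deposited tables, and all 10 were found in both libraries. In the library labelled IRF8KO they split into 3 classes. Mrc1, Pf4, Dab2 and Tgfbi were gained, from 0.485 to 31.3 CPM in wild-type (WT) cells to 316 to 1462 CPM (a gene's UMIs summed over a library's cells, per 1000000 UMIs of those cells). Stab1 was already present in WT cells and was 2.09-fold higher. Cd163, F13a1, Lyve1, Folr2 and Cbr2 stayed near 0, at or below 12.9 CPM in either library.

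Border macrophages live in the meninges, the choroid plexus and the spaces around brain vessels, while microglia live in the brain tissue itself. Both are long-lived macrophages, and border macrophages carry more of the receptors that take up proteins, sugars and debris from the surrounding fluid. Mrc1 (the mannose receptor CD206), Stab1 (stabilin 1), Cd163 (the receptor for haemoglobin bound to haptoglobin), Lyve1 (a hyaluronan receptor) and Folr2 (folate receptor beta) are such surface receptors. Dab2 is a clathrin adaptor that gathers receptors for uptake. Pf4 (the chemokine CXCL4) and Tgfbi (a matrix protein induced by TGF-beta) are secreted, F13a1 is the A subunit of the cross-linking enzyme factor XIII, and Cbr2 is a carbonyl reductase. IRF8 is a transcription factor of the myeloid lineage on which microglia depend.

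The study compared microglia of adult WT mice with those of mice lacking Irf8, cell by cell. There were 2 libraries, WT and IRF8KO, each from cells of 3 female C57BL/6 mice aged 3 months that were pooled after isolation without enzymes and sorted by flow cytometry; no treatment is listed for either. The groups come from the sample titles, and the genotype entry of the IRF8KO sample reads WT, so it is called the library labelled IRF8KO. The sources used here name neither the allele nor the markers of the sort. With 1 library and 1 pool per group no test of genotype exists: intervals in brackets are exact 95% intervals that cover counting error only, and no p-value is given. A UMI is a tag that counts each captured transcript once. A cell was kept with 1000 UMIs or more, 500 genes or more and no more than 10% of UMIs from mitochondrial genes. Of these, cells with 2% or more of their UMIs in the 6 neutrophil genes Camp, Ngp, S100a8, S100a9, Lcn2 and Ltf were set aside, which left 3304 WT cells and 5007 IRF8KO cells and set aside 0 and 98.

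The 2 sets of cells were sequenced to a similar depth, with 18543061 UMIs in WT and 18980263 in IRF8KO, and medians of 3204 and 2933 UMIs per cell. The libraries shared 5 cell barcodes. Irf8 itself was at 794 CPM in WT and 669 in IRF8KO, a log2 ratio of -0.25 (-0.28 to -0.21) beside a median of -0.28 over 8859 genes, which does not test the label, since the counted end of the transcript may lie outside the deletion. All 11 microglia markers listed for this comparison were detected in both libraries, with a summed level of 28721 CPM in WT and 13674 in IRF8KO. Sall1, a defining microglial transcription factor, had 9469 UMIs in WT and 54 in IRF8KO, and Apoe took over 8% of the UMIs of most IRF8KO cells. Whether these shifts take part in the values below was not tested.

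A gene was called gained at 50 CPM or more in IRF8KO and at least 4-fold above WT, and near 0 below 20 CPM in both libraries. By this rule 4 of the 10 genes were gained, beside 91 of the 8859 genes at 10 CPM or more in a library (1.03%). The genes had been proposed with earlier results of these data known, so this count describes them and supports nothing. The 4 gained genes together made up 68.0 CPM in WT and 2863 CPM in IRF8KO, and the 5 near-0 genes 2.16 and 28.4 CPM. The lowest fold among the gained genes was 10.1 (Tgfbi), the highest fold outside that class at 50 CPM or more was 2.09 (Stab1), and the highest IRF8KO level among the near-0 genes was 12.9 CPM (F13a1).

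**Figure D1:**
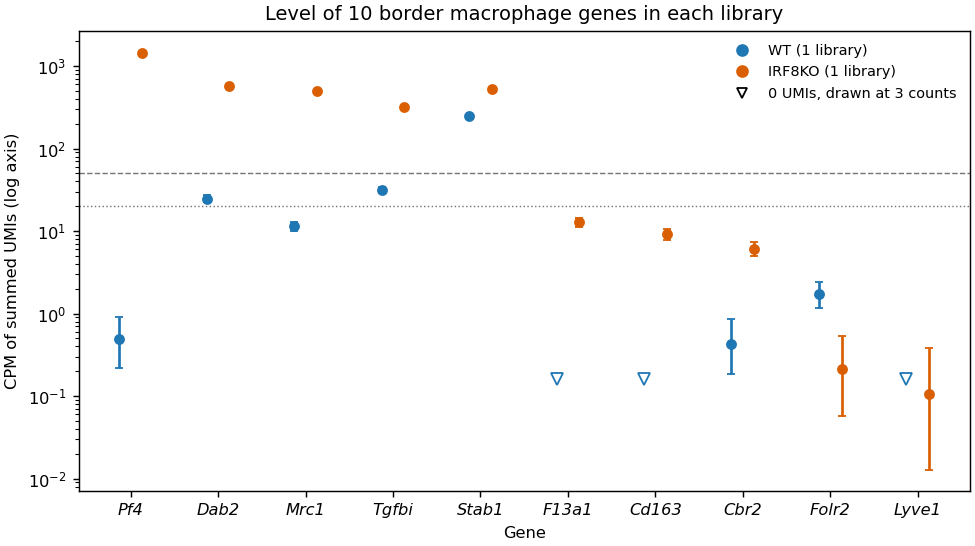
Level of each gene in the WT (blue) and IRF8KO (orange) libraries, as CPM of summed UMIs on a log axis, with exact 95% Poisson intervals, 1 library per group; open triangles are genes with 0 UMIs, drawn at 3 counts, and the dashed and dotted lines are 50 and 20 CPM. Pf4, Dab2, Mrc1 and Tgfbi lie above 50 CPM in IRF8KO only, Stab1 in both libraries, and the other 5 genes below 20 CPM in both.

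Pf4, the chemokine, had the largest difference of the 4. It had 9 UMIs in 6 WT cells (0.485 CPM, 0.222 to 0.921) and 27746 UMIs in 3991 IRF8KO cells (1462 CPM, 1445 to 1479). Its log2 ratio was 11.56 (10.63 to 12.69), and only 2 of the 8859 genes had a higher ratio. Mrc1, the mannose receptor, had 212 UMIs in WT (11.4 CPM, 9.95 to 13.1) and 9550 in IRF8KO (503 CPM, 493 to 513), a log2 ratio of 5.46 (5.26 to 5.66). The endocytic adaptor Dab2 had 459 and 11047 UMIs, or 24.8 CPM (22.5 to 27.1) and 582 CPM (571 to 593), and a log2 ratio of 4.56 (4.42 to 4.69). Tgfbi, the matrix protein, had 581 and 6001 UMIs, or 31.3 CPM (28.8 to 34.0) and 316 CPM (308 to 324), and a log2 ratio of 3.33 (3.21 to 3.46). The WT and IRF8KO intervals of these genes lay far apart. Stab1, the scavenger receptor of the between class, had 4658 and 9954 UMIs, or 251 CPM (244 to 259) and 524 CPM (514 to 535), and a log2 ratio of 1.06 (1.01 to 1.11). In WT cells Stab1 was thus the only one of the 10 above 50 CPM.

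The sequences just upstream of the gene starts are shown for the 4 gained genes and for Cd163 and F13a1, the near-0 genes with no UMI in WT and 173 and 244 UMIs in IRF8KO, to set gained genes beside genes that stayed near 0. They are 150 bases of GRCm38.p6 from RefSeq, read 5′ to 3′ on the gene's strand and ending at the base before the earlier of the RefSeq and GENCODE M21 starts. Capitals mark GAGGAA, the core of the site bound by the myeloid factor PU.1, or its reverse complement TTCCTC, and an interferon response element of the kind IRF factors bind (GAAA, any 2 bases, GAAA).
Mrc1, chr2:14229242-14229391, + strand: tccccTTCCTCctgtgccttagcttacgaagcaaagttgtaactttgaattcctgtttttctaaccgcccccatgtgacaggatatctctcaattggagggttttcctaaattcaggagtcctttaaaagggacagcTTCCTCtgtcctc
Pf4, chr5:90772285-90772434, + strand: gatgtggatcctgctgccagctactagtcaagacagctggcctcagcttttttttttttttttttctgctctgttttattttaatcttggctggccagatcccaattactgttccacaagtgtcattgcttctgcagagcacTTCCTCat
Dab2, chr15:6299638-6299787, + strand: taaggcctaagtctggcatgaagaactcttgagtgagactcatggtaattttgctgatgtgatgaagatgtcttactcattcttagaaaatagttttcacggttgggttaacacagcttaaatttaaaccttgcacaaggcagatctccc
Tgfbi, chr13:56609373-56609522, + strand: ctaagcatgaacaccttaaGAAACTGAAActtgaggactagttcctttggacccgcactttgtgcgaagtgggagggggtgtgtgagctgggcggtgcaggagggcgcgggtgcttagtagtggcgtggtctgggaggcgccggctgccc
Cd163, chr6:124304501-124304650, + strand: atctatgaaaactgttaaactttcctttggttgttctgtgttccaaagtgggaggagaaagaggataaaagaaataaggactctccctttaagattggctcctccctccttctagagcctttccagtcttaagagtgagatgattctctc
F13a1, chr13:37050245-37050394, - strand: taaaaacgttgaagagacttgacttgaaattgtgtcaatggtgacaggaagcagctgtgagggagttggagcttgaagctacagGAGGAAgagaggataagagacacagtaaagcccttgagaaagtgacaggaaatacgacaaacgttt

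RefSeq windows of 250 bases before a start were found for 9 of the 10 genes, 12 windows in all, and both strands were searched. GAGGAA lay in 4 of 5 windows of gained genes (Mrc1, Pf4 and both Dab2 windows), in the Stab1 window and in 2 of 6 windows of near-0 genes. The same letters occurred in 23.2% of 32851 windows of that length. The interferon response element lay in the Tgfbi window alone, beside 2.98% of all windows. The AP-1 site TGACTCA lay in 1 Folr2 window (4.46% of all windows), and neither TGCTGAC, the core of a MAF site (3.81%), nor CACGTG, an E-box (6.02%), lay in any of the 12. Matches of different motifs did not overlap in these windows. They describe letters only, since no binding was measured here.

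To compare cells at equal depth, each cell was thinned at random to 2000 UMIs, and shallower cells were left out, 285 in WT and 498 in IRF8KO, leaving 3019 and 4509. A UMI of Pf4 was found in 0.0331% of thinned WT cells and 74.3% of thinned IRF8KO cells (73.0 to 75.5). The share for Dab2 was 4.97% in WT and 62.3% in IRF8KO (60.9 to 63.7), and for Mrc1 1.92% and 52.7% (51.2 to 54.2). The share for Tgfbi was 5.46% and 43.9% (42.4 to 45.4), and for Stab1 37.3% and 59.8% (58.3 to 61.2). Without thinning, 0.182% of WT and 79.7% of IRF8KO cells held a UMI of Pf4, and 4.81% and 64.7% held one of Mrc1. Each gained gene was thus found in a large part of the IRF8KO cells. Free RNA in the droplets can also place a UMI in a cell. In 97 thinned IRF8KO cells over the neutrophil gene limit, whose median depth before thinning was 7058 UMIs, the shares were 6.19% for Pf4, 7.22% for Dab2 and 4.12% each for Mrc1 and Tgfbi. The shares of all 4 gained genes were thus far higher in the cells used than in these set-aside cells. At full depth 3 of the set-aside cells held 68.8% of their UMIs of the gained genes. The level of free RNA was not estimated, and its part in these shares was not tested.

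How evenly the cells carried these genes differed from gene to gene. If all cells shared 1 mean level, Poisson counting at the thinned mean of 2.85 UMIs of Pf4 would leave 5.76% of IRF8KO cells without a UMI, and 25.7% had none. The variance of Pf4 was 4.12 times its mean, and a thinned cell held up to 47 UMIs of it. For Mrc1 47.3% of cells had no UMI beside 38.8% from its mean, and the variance was 1.64 times the mean. Dab2 came closer to even counting, with 37.7% beside 32.5% and a ratio of 1.32, and Tgfbi closest, with 56.1% beside 54.2% and 1.13. Stab1 lay between Dab2 and Tgfbi, with 40.2% beside 36.6% and a ratio of 1.20. To compare genes of different levels, the variance above Poisson was divided by the squared mean, which gave 1.09 for Pf4, 0.673 for Mrc1, 0.283 for Dab2, 0.212 for Tgfbi and 0.204 for Stab1. Pf4 and Mrc1 therefore varied most from cell to cell beyond counting.

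**Figure D2:**
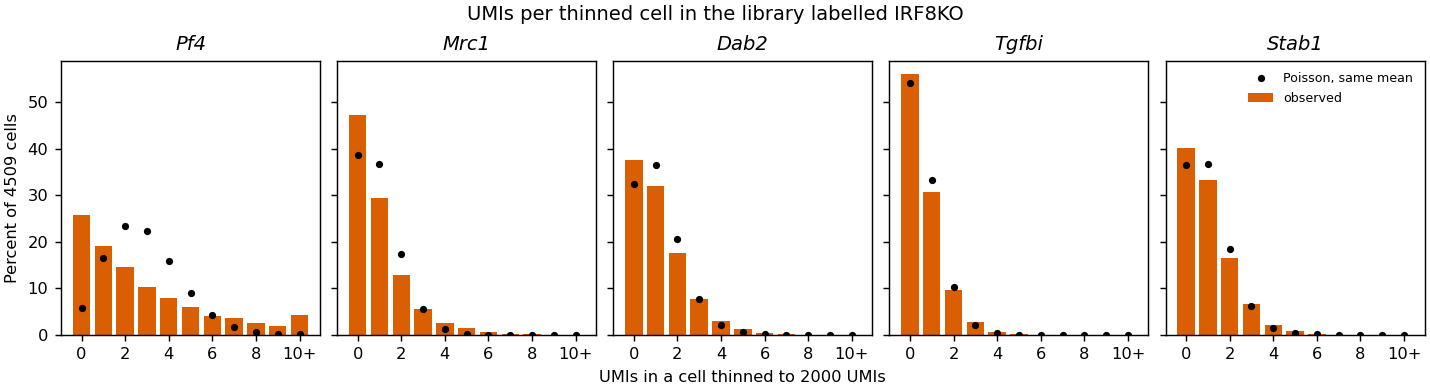
Share of the 4509 thinned IRF8KO cells (bars, in percent) by the number of UMIs of each gene in the cell, with the last bar holding 10 or more; black points are a Poisson distribution with the same mean. Pf4 departs most from the points, with 25.7% of cells at 0 UMIs beside 5.76%, while Tgfbi follows them closely.

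Most thinned IRF8KO cells held several gained genes. Of the 4509 cells, 167 held none of Mrc1, Pf4, Dab2 and Tgfbi, 806 held 1, 1484 held 2, 1469 held 3 and 583 held all 4. At least 1 was found in 4342 IRF8KO cells (96.3%) and in 361 of the 3019 WT cells. Multiplying the 4 shares as if the genes fell on cells independently gives 116, 747, 1654, 1509 and 482 cells. The observed number of cells with all 4 was 1.21 times that product (1.12 to 1.30), and the number with none 1.44 times. In WT 2658, 348, 13, 0 and 0 thinned cells held 0 to 4 of the genes, beside 2659, 346 and 13.9 for 0, 1 and 2. Co-occurrence in IRF8KO cells was therefore slightly above the product of the shares.

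**Figure D3:**
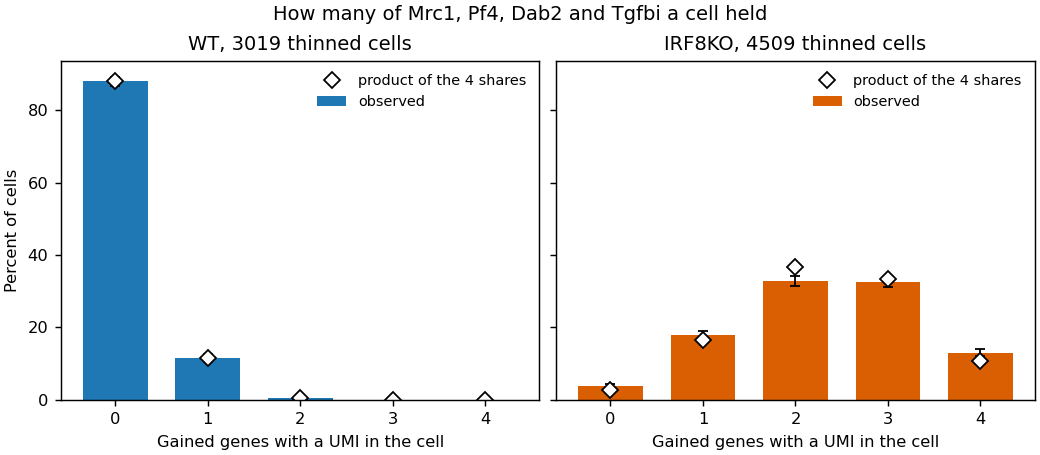
Percent of thinned cells that held a UMI of 0, 1, 2, 3 or 4 of Mrc1, Pf4, Dab2 and Tgfbi (bars with exact 95% binomial intervals) in 3019 WT cells (left) and 4509 IRF8KO cells (right), 1 library each; diamonds are the product of the 4 shares. In IRF8KO 12.9% of cells held all 4 beside 10.7% from the product, and 3.70% held none beside 2.57%.

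Taken pair by pair, the 6 pairs of gained genes occurred in the same cells at 1.01 to 1.07 times the product of their shares, with a median of 1.03. Full overlap of the rarer gene would have given 1.35 to 1.90 times. The receptor Mrc1 and the adaptor Dab2 had the highest ratio, 1.07 (1.02 to 1.11). Dab2 was found in 66.5% (64.6 to 68.4) of cells with a UMI of Mrc1 and in 57.6% (55.5 to 59.7) of those without. Mrc1 and Pf4 had the lowest ratio, 1.01 (0.974 to 1.05), with Pf4 in 75.1% of cells with Mrc1 and 73.4% of cells without, and these intervals overlapped. Dab2 was found in 64.1% of cells with Pf4 and 57.1% of cells without. For Stab1 the ratio ran from 0.9998 with Pf4 to 1.06 with Mrc1. As a further reference, gained genes paired with microglia markers, 32 pairs in all, gave 0.923 to 1.22 with a median of 1.01. The highest of these was Mrc1 with Slc2a5, a sparsely detected marker, at 1.22 (1.05 to 1.41). The next was Mrc1 with P2ry12 at 1.06 (1.02 to 1.105). Its interval overlapped nearly all of that of Mrc1 with Dab2, so the pair of Mrc1 and Dab2 did not stand apart from the marker pairs.

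**Figure D4:**
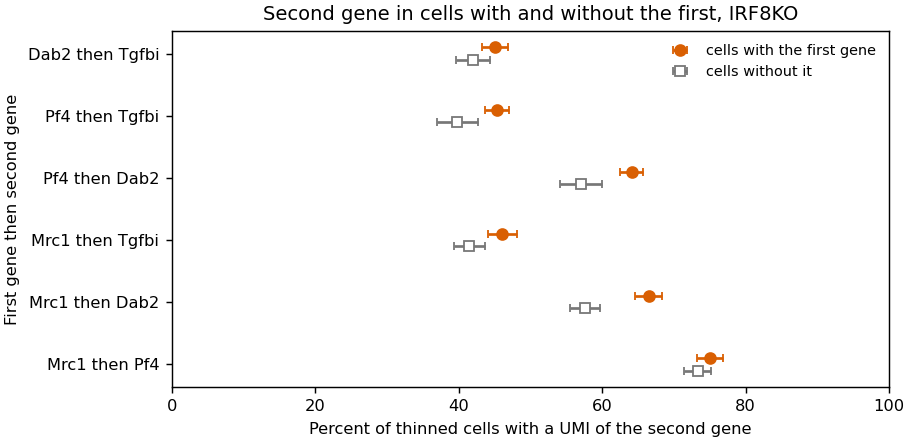
Percent of thinned IRF8KO cells with a UMI of the second gene, among cells with a UMI of the first gene (filled circles) and cells without (open squares), with exact 95% binomial intervals, for the 6 pairs of gained genes. Mrc1 then Dab2 has the widest gap, 66.5% against 57.6%, and Mrc1 then Pf4 the narrowest, 75.1% against 73.4%.

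Cells with none and cells with all 4 gained genes had similar medians in the summary measures taken. The median share of thinned UMIs in microglia markers was 1.35% in cells with none and 1.35% in cells with all 4, beside 2.85% in WT cells with none. The median Apoe share was 8.55% and 8.40%, the median mitochondrial share 3.39% and 3.71%, and the median depth before thinning 2823 and 3086 UMIs. A summed marker share can hide single markers that move in opposite ways. P2ry12 was found in 62.6% of thinned IRF8KO cells with Pf4 and 69.9% of those without. With Mrc1 the order was reversed, at 68.6% of cells with it and 60.0% of cells without. In WT the median marker share was 2.80% in the 348 cells with 1 gained gene. The 159 WT cells with a UMI of Mrc1 had 2.92% of UMIs in microglia markers, beside 2.87% over all WT cells. Of these 159 cells 157 (98.7%) held a UMI of P2ry12, the purinergic receptor that marks microglia, beside 99.5% of all WT cells. The WT cells with Mrc1 were deeper than the library as a whole, with a median of 8367 UMIs, as were the 6 WT cells with Pf4, at 32255.

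IRF8KO cells were clustered without the 10 genes, and clusters are called by number and by their 3 leading genes by fold. Across the 4 clusters with over 200 thinned cells, Mrc1 ran from 318 CPM in cluster 2 (Fxyd5, Lsp1, Cd72; 1811 cells) to 638 in cluster 1 (Crybb1, G0s2, Cck; 2052 cells). Pf4 went the other way, at 1077 CPM in cluster 1 (1049 to 1105) and 1844 in cluster 2 (1809 to 1879). Dab2 varied 1.52-fold over these 4 clusters, Stab1 1.37-fold and Tgfbi 1.10-fold. P2ry12 was at 877 CPM in cluster 1 and 397 in cluster 2, and Ms4a7, a border macrophage gene, at 292 and 871. Cluster 1 thus had more Mrc1 and P2ry12, and cluster 2 more Pf4 and Ms4a7. Within each of clusters 1 to 4 the pairs of gained genes gave 0.996 to 1.11 times the product of the shares. Cells with all 4 gained genes were 1.31 times the product in cluster 1 (lower bound 1.15) and 1.14 times in cluster 2 (0.987 to 1.30). The ratio was 1.08 in cluster 3 (0.907 to 1.26) and 1.43 in cluster 4 (0.979 to 1.99), so the interval included 1 in 3 of the 4 clusters.

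A cluster of 35 cells stood apart. Cluster 7 (Sall1, Csmd3, Plekhh2) had 9 UMIs of Pf4, or 72.6 CPM, beside 1077 to 3052 CPM in the other 9 clusters. Its Mrc1 was 258 CPM, Dab2 234, Tgfbi 226 and Stab1 516 CPM, so Pf4 was the gene in which it differed most. Of its 34 thinned cells, 29.4% held no gained gene, beside 1.24% to 4.52% in clusters 1 to 4. These cells had 290 CPM of Sall1 and 2693 CPM of P2ry12, no UMI of Ms4a7, 0.786% of UMIs in Apoe and 2.85% in microglia markers. At the other end, Pf4 was highest in cluster 9 (Lyz1, Lyz2, Nmrk1), at 3052 CPM, in 22 cells with a median mitochondrial share of 0.371%. These differences between clusters are descriptions, because the clusters came from the same cells.

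**Figure D5:**
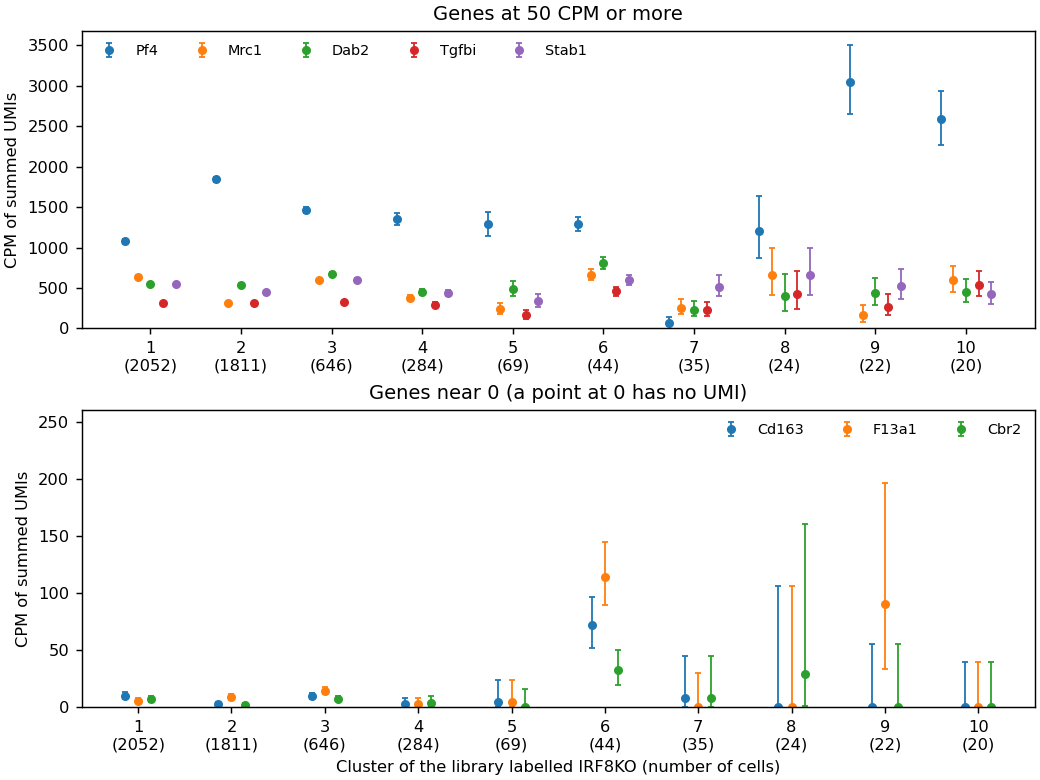
CPM of summed UMIs in the 10 clusters of IRF8KO cells (clustered without the 10 genes; number of cells in brackets), with exact 95% Poisson intervals, for the 5 genes at 50 CPM or more (top) and for Cd163, F13a1 and Cbr2 (bottom). Pf4 is lowest in cluster 7 at 72.6 CPM, and Cd163, F13a1 and Cbr2 are highest in cluster 6, at 71.9, 114 and 32.7 CPM.

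Of the receptors near 0, Cd163 had no UMI in WT and 173 in 137 IRF8KO cells (9.12 CPM, 7.81 to 10.6), at least 56.3-fold higher when the WT count is set to 3 over the library. F13a1, the factor XIII subunit, had no UMI in WT and 244 in 134 IRF8KO cells (12.9 CPM, 11.3 to 14.6), at least 79.5-fold higher. On the log2 scale these bounds were 5.82 for Cd163 and 6.31 for F13a1, and they were 5.22 and 5.44 without the deepest cells and 3.34 and 3.79 with 1 CPM added to both levels. Cbr2, the reductase, had 8 UMIs in WT and 116 in 91 IRF8KO cells (0.431 and 6.11 CPM), a log2 ratio of 3.82 (2.80 to 5.07), or 2.31 with 1 CPM added. These 3 genes were thus higher in IRF8KO by ratio, yet held by few cells. The folate receptor Folr2 went the other way, with 32 UMIs in 20 WT cells and 4 UMIs in 3 IRF8KO cells, a log2 ratio of -3.03 (-4.99 to -1.54), which was -5.12 when each cell counted equally and -1.17 with 1 CPM added. Those 20 WT cells had a median depth of 32371 UMIs, and 1 of them held 8 of the 32. Lyve1 had 0 UMIs in WT and 2 in IRF8KO, both in the same cell, and no fold is given.

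At 2000 UMIs per cell, Cd163 was found in 1.33% of IRF8KO cells (1.02 to 1.71), F13a1 in 1.60% (1.25 to 2.01), Cbr2 in 1.06% (0.786 to 1.41), and Folr2 in 1 cell. A UMI of Lyve1 was found in 0 of 4509, which allows a share of cells with a UMI of up to 0.0665% (3 counts of the total, as for each share of 0). UMIs of Cd163, F13a1 and Lyve1 were found in 0 of 3019 WT cells, which allows up to 0.0994%. Among the 97 thinned cells over the neutrophil gene limit, F13a1 was found in 2.06% (0.251 to 7.25), so its overall share in the cells used was not above the share there. At full depth 66.7% of the F13a1 UMIs of those set-aside cells lay in 3 cells. Cd163 was found in 0 of the 97, which allows up to 3.09%, so the thinned shares cannot be told apart at this number of cells. At full depth Cd163 had 1 UMI in the 98 set-aside cells, or 1.19 CPM (0.0300 to 6.61). This was below its 9.12 CPM (7.81 to 10.6) in the cells used. The part of free RNA in these values was not tested.

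The near-0 genes were not spread evenly, however. In cluster 6 (H2-Eb1, Ccr2, H2-Aa; 44 cells) Cd163 was found in 15.9% of thinned cells (6.64 to 30.1) and in 1.19% (0.890 to 1.55) of all other IRF8KO cells. F13a1 was found in 18.2% (8.19 to 32.7) and 1.43% (1.11 to 1.83), and Cbr2 in 6.82% (1.43 to 18.7) and 1.01% (0.736 to 1.35). This cluster held 25.4% of all Cd163 UMIs, 28.7% of F13a1 and 17.2% of Cbr2 in 0.879% of the cells. Its gained genes were at 663 CPM for Mrc1, 1289 for Pf4, 807 for Dab2 and 457 for Tgfbi. Cells of cluster 6 were deep, with a median of 9144 UMIs. Their monocyte markers summed to 469 CPM, of which Ccr2 made up 418, beside 0 to 42.0 CPM in the other 9 clusters. Of the 10 monocyte markers, Ly6c2, Ace and Plac8 had no UMI in any IRF8KO cell used. Whether monocyte transcripts or cells captured in pairs take part in these values was not tested. Without cluster 6, Cd163 was at 7.02 CPM, F13a1 at 9.47 and Cbr2 at 5.23.

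At full depth, 323 IRF8KO cells (6.45%) held a UMI of at least 1 near-0 gene, and 32 held 2 or more. Of these 32 cells, 16 lay in cluster 6 and 7 in cluster 3, their median depth was 11445 UMIs, and 27 held all 4 gained genes. In the 32 cells Mrc1 was at 829 CPM and Dab2 at 837, beside 482 and 564 in the 4684 cells without a near-0 gene, while Pf4 was at 1466 and 1474. A single cell of 35698 UMIs held all 5 near-0 genes, and it was the sole cell with Lyve1. The count of 32 became 16 without cluster 6 and 15 without the deepest 181 cells. After thinning, Cd163 and F13a1 were found in the same cell 3 times, beside 0.958 from the product of their shares, too few to say whether they go together.

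No gene's pattern over cells was strongly like that of a gained gene. By Pearson correlation of log thinned UMIs over the 4509 IRF8KO cells, which share a library and a depth, the 3 most alike of 5316 genes outside the 10 were Maf (0.18), Fcrls (0.13) and Crybb1 (0.13) for Mrc1. For Pf4 they were Fxyd5 (0.15), Ms4a7 (0.15) and Fth1 (0.13), and for Dab2 Maf (0.13), F630028O10Rik (0.076) and Ctsc (0.075). For Tgfbi the highest values were 0.050 (Tcf20), 0.049 (Taok3) and 0.048 (Ypel5). Among the gained genes the correlation ran from 0.013 (Mrc1 with Pf4) to 0.13 (Mrc1 with Dab2). For Tgfbi 0 of the 5316 genes had a higher correlation than Mrc1, and for Dab2 1 gene had a higher one than Mrc1. For Dab2 1 gene likewise had a higher one than Pf4, and for Mrc1 3 genes had a higher one than Dab2. For Pf4 28 genes had a higher one than Dab2. Some pairs ranked far lower. For Mrc1 1715 genes had a higher correlation than Pf4, and for Pf4 1175 had a higher one than Mrc1. For Dab2 233 genes had a higher one than Tgfbi. All of these correlations are weak and are given as description.

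Other genes that mark border macrophages were divided in the same way. Of 24 listed, 14 reached 10 CPM in a library, and 7 of these were at least 4-fold higher in IRF8KO and 0 at least 4-fold lower, beside 2.61% and 2.89% of all 8859 genes. Their median log2 ratio was 2.06, beside -0.28 over all genes. Of the 14 genes, 6 reached 10 CPM only in IRF8KO, so they had to be higher there, and they make up 6 of the 7, which leaves the count and the median as description. Ms4a7 had 0 and 12311 UMIs and Clec12a, an inhibitory lectin receptor, 0 and 3985. Clec4n, the lectin receptor dectin-2, had 4 UMIs in WT and 3154 in IRF8KO. Hpgd, Slc40a1 and Maf, by contrast, were already expressed in WT, with log2 ratios of 0.56, -0.03 and -0.31. Cd209f and Ccl8 had no UMI in either library, and Clec10a, Cd209a, Timd4 and Cd36 had 5 to 11 UMIs in IRF8KO. A near-0 set is thus present in this list as well.

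Of 22 other scavenger receptors 10 reached 10 CPM, and their median log2 ratio was -0.08. Those at least 4-fold higher included Msr1 and Colec12, and 0 were at least 4-fold lower, beside 2.61% and 2.89% of all genes. Colec12, a collectin receptor, had 0 UMIs in WT and 1090 in IRF8KO (57.4 CPM), at least 355-fold higher. The macrophage scavenger receptor Msr1 had 19 UMIs in WT and 514 in IRF8KO (1.02 and 27.1 CPM), a log2 ratio of 4.72 (4.07 to 5.47). Mertk and Cd68 were lower, at log2 ratios of -0.34 and -0.67. Of 20 partners of Dab2 in clathrin uptake, 17 reached 10 CPM, with a median log2 ratio of -0.11. Of these 1 was at least 4-fold higher and 1 at least 4-fold lower, beside 2.61% and 2.89% of all genes. The lower one was Numb, an adaptor with the same kind of phosphotyrosine-binding domain as Dab2. Numb was at 318 CPM in WT and 50.3 in IRF8KO (log2 ratio -2.66). Clathrin itself differed little (Cltc 0.31, Clta 0.12), and Picalm, a clathrin assembly protein, had a log2 ratio of -1.48. The log2 ratio of 4.56 for Dab2 thus stood beside a partner median near 0.

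Of 10 genes that handle haem and iron downstream of Cd163, all reached 10 CPM. Of these 0 were 4-fold higher or lower, beside 2.61% and 2.89% of all genes, so a count of 0 describes a short list only. The iron store proteins Fth1 and Ftl1 had log2 ratios of 1.30 and 1.23, and Hmox1, the haem-degrading enzyme, 0.0011. Of 20 relatives of the 10 genes, 9 reached 10 CPM, 3 were at least 4-fold higher and 1 at least 4-fold lower, beside 2.61% and 2.89% of all genes. The 3 higher genes, Cxcl1, Cxcl2 and Cd44, reached 10 CPM only in IRF8KO. Mrc2, a relative of Mrc1, had 596 UMIs in WT and 0 in IRF8KO, at least 203-fold lower. Postn, the relative of Tgfbi, had 168 and 0. Among chemokines related to Pf4, Cxcl1 and Cxcl2 had no UMI in WT and 307 and 958 in IRF8KO. Mrc1 and Tgfbi were thus gained in a library in which Mrc2 and Postn had no UMI.

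Because Pf4 is also abundant in platelets, their markers were examined in the same cells. Of 12 platelet markers 1 reached 10 CPM (Gp9), and their summed level was 49.9 CPM in WT and 20.4 CPM in IRF8KO. Gp1ba, Gp1bb, Gp6 and Tubb1 had 0 UMIs in IRF8KO, and Itga2b had 2. Ppbp, a platelet chemokine related to Pf4, had 73 UMIs in 72 IRF8KO cells, 71 of which also held Pf4. Of all IRF8KO cells used, 3991 (79.7%) held Pf4. Gp9 had 859 UMIs in WT and 262 in 242 IRF8KO cells (46.3 and 13.8 CPM), and 182 of the 242 also held Pf4. Clec1b had 3 UMIs in WT and 35 in 33 IRF8KO cells, 27 of which also held Pf4. The part of platelet transcripts in the Pf4 values was not tested. Of the other marker lists, fibroblast and mural markers summed to 0.211 CPM in IRF8KO, endothelial markers to 42.2 CPM and lymphocyte markers to 26.3 CPM, beside 2.37, 92.5 and 313 CPM in WT. Monocyte markers summed to 9.87 CPM in WT and 39.1 in IRF8KO, and neutrophil markers to 2.48 and 54.6. The part of the latter 2 lists in the gained genes was not tested.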

How the data were processed

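Single cells of 2 libraries (WT and IRF8KO, 1 per group) were analysed. The authors deposited whole-number UMI counts per gene and barcode, without normalization. Per the submitters' processing notes bcl2fastq, Cell Ranger 3.1 and Scanpy were used with mm10, and per the file headers the tables were written by software version 3.1.0. The labels' protocols also name a full-length kit, which does not use droplets, although these counts look like droplet data. The lowest barcode held 500 UMIs in WT and 501 in IRF8KO, so barcodes had been selected before deposit, and 3504 and 5303 were present. The filter and the neutrophil gene limit are given above. UMIs were summed per library and scaled to CPM. A sum of 0 was set to a floor of 3 counts over the library (0.162 CPM in WT, 0.158 in IRF8KO). Ratios carry exact conditional binomial intervals, CPM exact Poisson intervals and shares exact binomial (Clopper-Pearson) intervals, at 95%. Cells were thinned without replacement with seed 1. IRF8KO cells were clustered on 2000 variable genes, 30 components, 15 neighbours and Leiden resolution 0.5 (leidenalg 0.10.2). No doublet caller was run; an alternative left out the cells with most UMIs, 0.8% per 1000 kept cells (87 in WT, 181 of the IRF8KO cells used). TMM factors came from edgeR 4.0.16, as an alternative scaling without a test. The ratios, intervals and pair values were tested on simulated data. The 10 genes, the other lists, the classes and the rules for naming genes were chosen with earlier results of these data known. From each list genes at 50 CPM or more with the 3 highest and 3 lowest ratios could be named; other list genes were named after their values were seen. Positions are from GENCODE M21 on GRCm38. Some genes of the other lists are not reported here.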

Additional observations from a re-analysis of the deposited data

Results flagged for a closer look

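Members of the list were also found in IRF8KO barcodes outside the comparison. In the 98 cells over the neutrophil gene limit, Mrc1 was at 117 CPM, Pf4 at 103, Dab2 at 115, Tgfbi at 62.9 and F13a1 at 21.4, each above its level in WT cells. Stab1 was at 94.9 CPM there, below its 251 CPM in WT cells. In these cells 3 cells held 68.8% of the 336 UMIs of the 4 gained genes, and they also held 88 to 566 UMIs of microglia markers. In the 198 IRF8KO barcodes that the filter left out, Mrc1 was at 732 CPM, Pf4 at 703, Dab2 at 629, Tgfbi at 309 and Stab1 at 824, each above its level in the 200 WT barcodes left out.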

How the results depend on the processing

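No paired analysis was possible because the groups share a single replicate number and there is no test. Depth limits the near-0 genes, whose shares rest on 0 to 72 thinned IRF8KO cells. Under 10 alternatives in scaling, cell weights, cell filters and pseudocount, none of the log2 ratios of the 9 genes with one changed sign. Mrc1 ran from 5.34 to 5.71, Dab2 from 4.46 to 4.81, Tgfbi from 3.29 to 3.59, Stab1 from 1.01 to 1.32 and Pf4, with 9 WT UMIs, from 9.94 to 12.75. Among near-0 genes the bound for Cd163 ran from 3.34 to 6.07 and for F13a1 from 3.79 to 6.57, and the ratio of Cbr2 ran from 2.31 to 4.10 and of Folr2 from -5.12 to -1.17. With TMM factors the median over all genes shifted by 0.26. The same 4 genes were gained under 10 of 11 alternatives, and with 10 CPM and 2-fold as limits there were 6, adding Stab1 and F13a1, beside 5.61% of all genes. A neutrophil gene limit of 1% left the same cells, since the highest share in IRF8KO cells used was 0.232%, so it could change no value here. Leaving out the minimum of 10 CPM for the genes compared could not change this count either. The number of cells with all 4 gained genes over the product of their shares was 1.21 and became 1.11 at 3000 UMIs per cell, 1.31 within cluster 1, 1.14 within cluster 2 (0.987 to 1.30), 1.08 within cluster 3 (0.907 to 1.26) and 1.43 within cluster 4 (0.979 to 1.99). The cause was not tested. Thinning to 1000 and 3000 UMIs gave shares of 33.6% and 63.4% for Mrc1 and 57.5% and 85.6% for Pf4, since shares move with depth. The 32 cells with 2 or more near-0 genes became 16 without cluster 6 and 15 without the deepest cells, alternatives chosen after seeing the data.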
